A study of Mus musculus with 24 samples.

Results

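The S100 family genes described here are the 10 listed genes S100a1, S100a4, S100a6, S100a8, S100a9, S100a10, S100a11, S100a13, S100a14 and S100a16, chosen by name among 35855 genes and found in every library. Their RNA was measured in 24 libraries of airway epithelial cells that were sorted from the tracheas of naive wild-type female mice, of the strain C57BL/6 by the series title. Each library came from 1000 cells. The labels name 3 sorted subsets, each with 8 libraries: BCAM HI (called BCAM high below), BCAM LO (BCAM low) and DIFFERENTIATED EPCS (differentiated), and all 3 groups share genotype, sex and lack of treatment. BCAM is a laminin-binding surface protein, and the series title calls the cells basal epithelial subsets. The labels do not say which surface levels divided high from low, how old the mice were, or what EPCS stands for. In each group 5 libraries (replicates 1 to 5) carry the label batch 1 and 3 (replicates 6 to 8) batch 2, and the labels do not say what the batch number stands for.

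S100 proteins are small proteins of vertebrates that bind calcium through paired EF-hand loops, mostly as dimers, and then attach to partner proteins such as annexins, cytoskeletal motors and surface receptors. Several are abundant in epithelia, and S100a8 with S100a9 forms calprotectin, a major cytosolic protein of neutrophils. Most S100 genes lie together beside the genes of epidermal differentiation.

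Library totals ran from 1824619 to 4440072 estimated counts, and 12211 genes passed the filter on low counts and were tested. Of the members, 8 passed it; S100a8 and S100a9 did not. The labels of the BCAM groups were checked with 9 basal markers (Krt5, Trp63, Krt14 and others), whose summed level is given in CPM, which are counts scaled to library size by the TMM method. The sum was 3857 to 5349 CPM in BCAM high and 2141 to 3161 in BCAM low, while differentiated libraries had 155 to 278. Transcripts of 5 thyroid genes summed to between 13682 and 116143 CPM in the differentiated libraries, against at most 1276 in BCAM high and 235 in BCAM low. The 3 differentiated libraries of batch 2 stood apart: their thyroid sum was 48973 to 116143 CPM against 13682 to 25709 in batch 1, and 7 secretory genes summed to 13410 to 89552 CPM against 290051 to 423950. The secretory sum was 25769 to 34792 CPM in BCAM high and 34446 to 75056 in BCAM low. Its median over the 3 differentiated libraries of batch 2, 19885 CPM, lay below both of these ranges. The parathyroid genes Pth and Gcm2 summed to 0 to 237 CPM in those 3 libraries against 187 to 17688 in batch 1, and 5 neuroendocrine genes to 115 to 302 against 414 to 11484. The 3 BCAM low libraries of batch 2 also stood apart, at -1.94 to 13.5 on the leading principal component against -50.6 to -41.3 in batch 1. Fold changes of the members are therefore given also within each batch. Genes of partners and receptors are given over both batches together. In bulk libraries, fewer cells of a type and less RNA per cell cannot be told apart, here and in all results below.

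All 10 members lie on mouse chromosome 3 (GENCODE M21, build GRCm38). From S100a1 at chr3:90511034-90514392 to S100a9 at chr3:90692632-90695721, 8 of them fill a stretch of 185 kb, and S100a11 (chr3:93520488-93526287) and S100a10 (chr3:93555080-93564643) form a separate group 2825 kb away. S100a1 on the minus strand and S100a13 (chr3:90514435-90524581) on the plus strand are placed head to head, with 42 bases between their annotated starts. RefSeq promoter windows (GRCm38.p6, 250 bases before to 50 after a start) were found for 8 of the 10 members. The windows of 4 members are printed 5′ to 3′ to show the start of the head-to-head pair and windows with named motifs, and no result below was tested against them: S100a13, whose window shares 204 bases with that of S100a1 (capitals), S100a11, with TGANTCA in capitals, and S100a4 and S100a8, with TATAAA in capitals. They lie on the plus strand at chr3:90514185-90514484, chr3:93520246-93520545, chr3:90603520-90603819 and chr3:90668821-90669120, in that order.
S100a13: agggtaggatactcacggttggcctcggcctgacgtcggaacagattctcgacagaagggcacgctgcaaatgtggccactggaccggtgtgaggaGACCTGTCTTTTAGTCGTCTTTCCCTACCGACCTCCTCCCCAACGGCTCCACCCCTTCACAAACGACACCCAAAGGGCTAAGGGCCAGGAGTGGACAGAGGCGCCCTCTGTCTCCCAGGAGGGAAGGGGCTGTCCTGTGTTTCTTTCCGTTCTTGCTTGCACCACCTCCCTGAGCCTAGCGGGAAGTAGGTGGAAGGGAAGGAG
S100a11: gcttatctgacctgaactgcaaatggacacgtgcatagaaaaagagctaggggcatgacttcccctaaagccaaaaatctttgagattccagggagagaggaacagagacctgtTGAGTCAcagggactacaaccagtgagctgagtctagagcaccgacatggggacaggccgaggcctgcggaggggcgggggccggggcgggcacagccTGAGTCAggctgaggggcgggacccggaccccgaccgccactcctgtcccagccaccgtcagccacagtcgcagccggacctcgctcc
S100a4: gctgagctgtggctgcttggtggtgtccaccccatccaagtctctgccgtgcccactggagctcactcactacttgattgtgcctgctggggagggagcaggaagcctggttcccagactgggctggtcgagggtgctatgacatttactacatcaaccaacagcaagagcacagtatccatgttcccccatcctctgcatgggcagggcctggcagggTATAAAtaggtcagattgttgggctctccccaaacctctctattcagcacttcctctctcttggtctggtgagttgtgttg
S100a8: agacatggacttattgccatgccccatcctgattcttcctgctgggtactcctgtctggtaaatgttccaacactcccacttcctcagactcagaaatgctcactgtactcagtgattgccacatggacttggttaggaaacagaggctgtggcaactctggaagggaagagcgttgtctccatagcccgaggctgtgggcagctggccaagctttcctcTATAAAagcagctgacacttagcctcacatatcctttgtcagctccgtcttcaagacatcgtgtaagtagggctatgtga

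On both strands, TATAAA was found in 13.6% of the 32851 promoter windows of the table and, among the members, in those of S100a4, S100a8 and S100a9. Its first base lies 31 bases before the start of S100a4 and 30 before that of S100a8, while in S100a9 it lies at or after the start. TGANTCA, the same on both strands, was found in 7.81% of all windows. S100a11 holds 2 copies, at 136 and 38 bases before its start, and the further member window with a copy is that of another start of S100a16. The other motifs searched, on both strands, were CCAAT (37.4% of all windows), TTNNGNAA (40.7%), GGGCGG (35.7%), CACCC (57.5%) and a loose form of the NF-kB motif (50.8%). In the printed windows the capitals of S100a11, S100a4 and S100a8 overlap none of these. These matches describe letters only.

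Within a library, levels of different genes were compared as TPM (a level scaled for transcript length and library size). S100a6, known as calcyclin, and S100a11 were the most abundant members in every group, at 3028 ± 625 and 1844 ± 364 TPM in BCAM high, 3450 ± 1121 and 1708 ± 504 in BCAM low, and 1688 ± 836 and 1131 ± 339 in differentiated libraries (mean ± SD, n = 8). Together they held 55.1% to 84.4% of the members' TPM per library, with a median of 81.4%. In differentiated libraries of batch 2 alone (n = 3), S100a6 had 854 ± 802 TPM, S100a11 921 ± 524 and S100a1 576 ± 218. In BCAM high, S100a10, S100a16, S100a14, S100a1, S100a13 and S100a4 followed at 349, 307, 209, 176, 61.5 and 35.1 TPM. In differentiated libraries S100a1 took the third place, at 486 ± 143 TPM, ahead of S100a10 at 110 ± 24.3, S100a16 at 90.9 ± 18.5, S100a14 at 67.9 ± 27.6 and S100a13 at 54.5 ± 16.2. Neighbours in this order whose means lay closer than the larger of their SDs were S100a10 and S100a16 in all 3 groups, S100a16 with S100a1 and S100a1 with S100a14 in BCAM low, and S100a6 with S100a11, S100a16 with S100a14, S100a14 with S100a13 and S100a4 with S100a8 in differentiated libraries. S100a8 and S100a9 were as close to each other in all 3 groups. All 10 members summed to 0.602% ± 0.117 of TPM in BCAM high and to 0.622% ± 0.191 in BCAM low, while differentiated libraries had 0.364% ± 0.120 (mean ± SD, n = 8 each). On the log2 TPM scale the median of all genes was also above differentiated libraries, by 0.75 in BCAM high and 0.48 in BCAM low. Whether the members differ from other genes cannot be read from these sums alone.

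**Figure D1:**
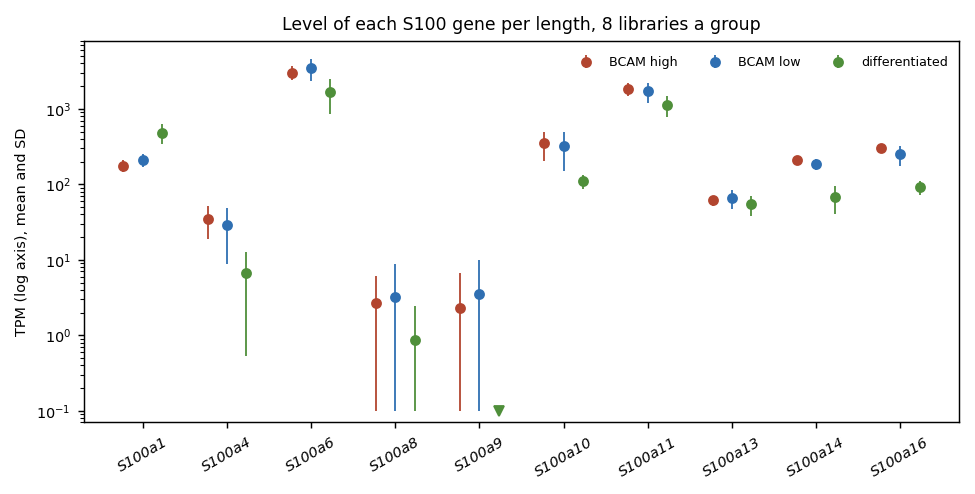
Level of each S100 gene in TPM (log axis) for the BCAM high, BCAM low and differentiated groups; points are means and bars SDs of 8 libraries, cut at 0.1 TPM, and the triangle marks a gene listed at 0 in all 8 differentiated libraries. The means of S100a6 and S100a11 over 8 libraries stand above 1000 TPM in every group. In differentiated libraries of batch 2 alone they were 854 and 921 TPM. On this scale S100a1 is the only member whose highest mean, 486 TPM, lies in the differentiated group. In CPM the mean of S100a13 is highest there too, at 46.5 against 30.4 in BCAM high and 39.0 in BCAM low.

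BCAM high and BCAM low were compared to see how the basal subsets differ. Of the 8 tested members, 1 was called, as lower in BCAM high, by edgeR's quasi-likelihood test at a Benjamini-Hochberg adjusted p under 0.05, against 7.02% of all 12211 genes (4.59% lower). This was S100a1, a calcium sensor known for its work on calcium cycling in muscle. S100a1 ran from 49.9 to 93.6 CPM in BCAM high (median 78.7) and from 77.1 to 140 in BCAM low (median 113). The ranges overlap, and the BCAM high library exceeded its same-numbered BCAM low library in 2 of 8 cases. The log2 fold change was -0.50 (SE 0.135, edgeR adjusted p = 0.0195). It was -0.98 in batch 2 alone (edgeR adjusted p = 0.00499), where the groups did not overlap, and -0.23 in batch 1 alone (edgeR adjusted p = 0.379). Without replicate 3 of BCAM low, its highest library, it was -0.43 (edgeR adjusted p = 0.0541). On the log2 TPM scale it was -0.25 (limma adjusted p = 0.373), where the median of all genes was 0.26.

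No tested member had BCAM high and BCAM low groups that did not overlap, against 1.50% of all genes. The other log2 fold changes were -0.42 for S100a6, -0.34 for S100a13, -0.14 for S100a11, -0.11 for S100a14, -0.04 for S100a10, 0.10 for S100a16 and 0.24 for S100a4, with SEs of 0.111 to 0.373 and edgeR adjusted p-values of 0.241 to 0.937. S100a6 was lower in BCAM high than in the same-numbered BCAM low library in 8 of 8 cases, although the numbers were not taken to pair the samples. For S100a6, batch 1 alone gave a call: 827 to 1092 CPM in BCAM high lay below 1123 to 1989 in BCAM low (log2 fold change -0.51, edgeR adjusted p = 0.0244). In batch 2 its ranges overlapped and the log2 fold change was -0.29 (edgeR adjusted p = 0.846). The summed level of 8 suprabasal and hillock markers (Krt4, Krt13 and others) also differed in batch 1, at 600 to 834 CPM in BCAM high and 2352 to 2510 in BCAM low; its part in the S100a6 values was not tested. The median log2 fold change of the tested members was -0.12, beside 8.78e-05 over all genes.

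**Figure D2:**
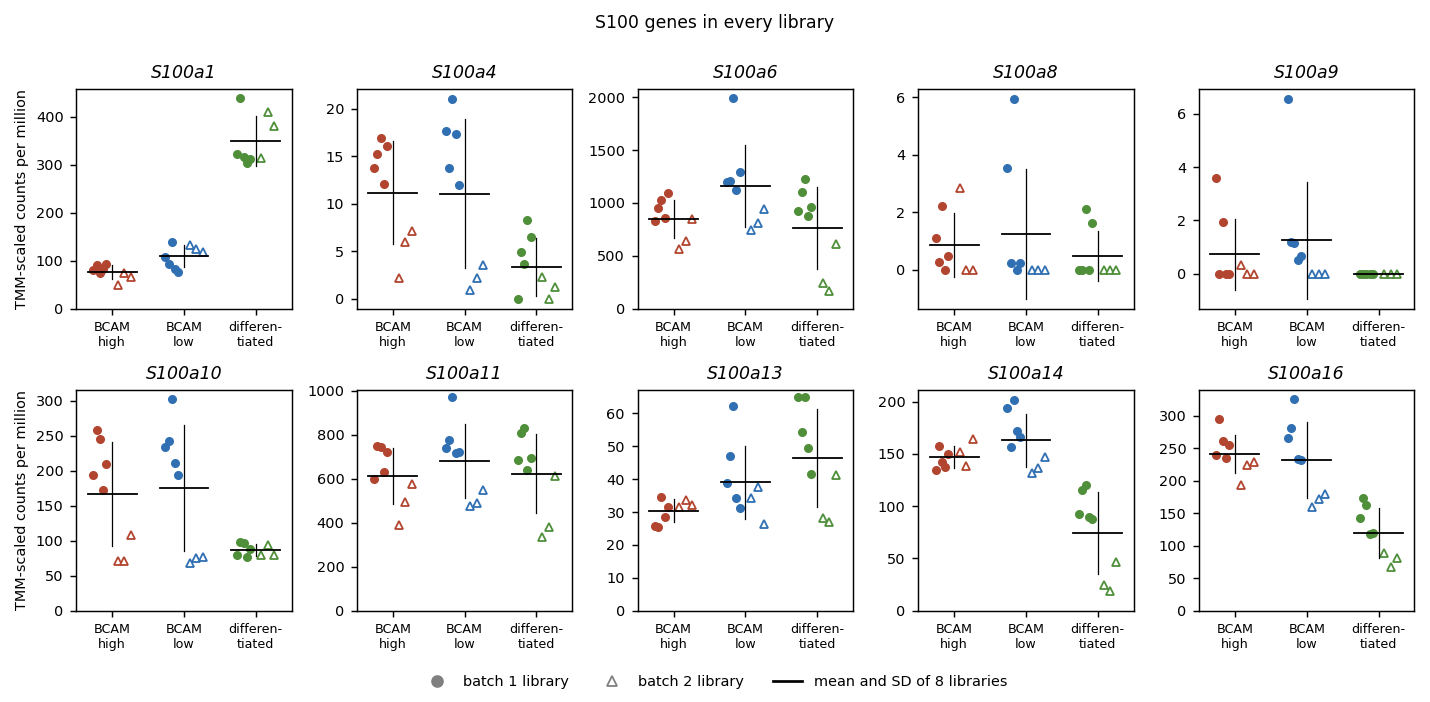
TMM-scaled CPM of each S100 gene (1 panel a gene, each with its own axis) in the 24 libraries by group; filled circles are batch 1 and open triangles batch 2, and lines give the mean and SD of 8 libraries. S100a1 separates the differentiated libraries from both BCAM groups, while S100a10 separates batch 1 from batch 2 in the BCAM groups only.

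The comparisons with the differentiated group ask how each basal subset differs from the other sorted cells; they share the differentiated libraries, so their values are given side by side. Against BCAM high, 6 of the 8 tested members were called, against 41.3% of all genes: 4 higher in BCAM high (19.4% of all genes) and 2 lower (22.0%). Against BCAM low, 6 of 8 were called, against 33.5% of all genes: 5 higher in BCAM low (16.3%) and 1 lower (17.1%). Groups did not overlap for 3 members in the former (13.4% of all genes) and 2 in the latter (7.27%). Median log2 fold changes of the tested members were 0.52 and 0.75, beside 0.02 over all genes in both.

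S100a1 was lower in both BCAM groups. It ran from 303 to 439 CPM in differentiated libraries, with a median of 319, and every BCAM library lay below that range. Log2 fold changes were -2.18 in BCAM high (SE 0.139, edgeR adjusted p = 4.4e-13) and -1.68 in BCAM low (SE 0.136, edgeR adjusted p = 1.22e-10). Both batches gave the same direction, with -1.99 and -2.54 for BCAM high and -1.76 and -1.56 for BCAM low in batch 1 and batch 2 alone. S100a13, its head-to-head neighbour, which takes part in the export of Fgf1 and Il1a without a signal peptide, had 25.5 to 34.5 CPM in BCAM high (median 31.7), 26.2 to 62.2 in BCAM low (median 36.1) and 26.9 to 65.1 in differentiated libraries (median 45.5). These ranges overlap throughout. S100a13 was lower in BCAM high than in differentiated libraries by the count test (log2 fold change -0.57, SE 0.169, edgeR adjusted p = 0.00727), but was at 0.22 on the log2 TPM scale (limma adjusted p = 0.298), where the median of all genes was 0.75. The count difference was -0.91 in batch 1 alone and 0.011 in batch 2 alone, and BCAM low was not called (-0.23, edgeR adjusted p = 0.303).

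S100a14, known mainly from epithelial cells, and S100a16, its neighbour on the plus strand, were higher in both BCAM groups. S100a14 ran from 134 to 164 CPM in BCAM high (median 146), 131 to 202 in BCAM low (median 161) and 19.2 to 120 in differentiated libraries (median 88.7). No BCAM library overlapped the differentiated range. Log2 fold changes were 1.12 (SE 0.222, edgeR adjusted p = 0.000217) and 1.23 (SE 0.22, edgeR adjusted p = 0.000108) for BCAM high and BCAM low. S100a16 ran from 194 to 294 CPM in BCAM high (median 237), 160 to 326 in BCAM low (median 233) and 67.0 to 174 in differentiated libraries (median 118). Its BCAM high range stood clear of the differentiated range and its BCAM low range overlapped it. Log2 fold changes were 1.07 (SE 0.113, edgeR adjusted p = 8.85e-09) and 0.98 (SE 0.113, edgeR adjusted p = 8.43e-08). Within each batch alone, both genes were called in both comparisons.

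S100a4, which binds non-muscle myosin heavy chain Myh9, was the least abundant of the tested members. It ran from 2.20 to 16.9 CPM in BCAM high (median 12.9), 0.882 to 21.05 in BCAM low (median 12.8) and 0 to 8.33 in differentiated libraries (median 2.98), from summed counts of 333, 356 and 49. The groups overlap through batch 2, while in batch 1 every BCAM library lay above every differentiated library. Log2 fold changes were 1.84 (SE 0.427, edgeR adjusted p = 0.000872) and 1.60 (SE 0.427, edgeR adjusted p = 0.0045) for BCAM high and BCAM low. Batch 2 alone gave no fitted value, because S100a4 did not pass the filter there.

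S100a10, also called p11, does not need calcium and joins annexin A2 (Anxa2) in a complex at membranes. It ran from 70.4 to 257 CPM in BCAM high (median 183), 67.9 to 303 in BCAM low (median 202) and 77.2 to 98.4 in differentiated libraries (median 84.1). The BCAM ranges enclose the differentiated range. Log2 fold changes over both batches were 0.75 (SE 0.205, edgeR adjusted p = 0.00469) and 0.79 (SE 0.207, edgeR adjusted p = 0.00436), but they rest on batch 1. In batch 1 alone they were 1.30 and 1.43, and in batch 2 alone -0.024 and -0.21 (edgeR adjusted p = 0.946 and 0.55).

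S100a6, which binds the calcyclin-binding protein Cacybp, and S100a11, a partner of annexin A1 (Anxa1), differed less. S100a6 ran from 562 to 1092 CPM in BCAM high (median 855), 748 to 1989 in BCAM low (median 1161) and 168 to 1223 in differentiated libraries (median 897). The groups overlap. It was called in BCAM low against differentiated libraries (log2 fold change 0.71, SE 0.218, edgeR adjusted p = 0.0141), with 0.42 in batch 1 alone and 1.29 in batch 2 alone (edgeR adjusted p = 0.0197 and 0.0944). It was not called in BCAM high (0.29, SE 0.218, edgeR adjusted p = 0.301). S100a11 ran from 390 to 747 CPM in BCAM high (median 615), 477 to 971 in BCAM low (median 720) and 335 to 830 in differentiated libraries (median 662), with wide overlap. Its log2 fold changes were -0.0012 in BCAM high and 0.14 in BCAM low against differentiated libraries (SE 0.112 in each, edgeR adjusted p = 0.995 and 0.374). On the log2 TPM scale S100a11 was at 0.76 and 0.61 (limma adjusted p = 0.00102 and 0.00929) and S100a6 in BCAM high at 1.10 (limma adjusted p = 0.00114), where the medians of all genes were 0.75 for BCAM high and 0.48 for BCAM low. Relative to those medians, S100a11 was at 0.0028 and 0.13 and S100a6 at 0.35.

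**Figure D3:**
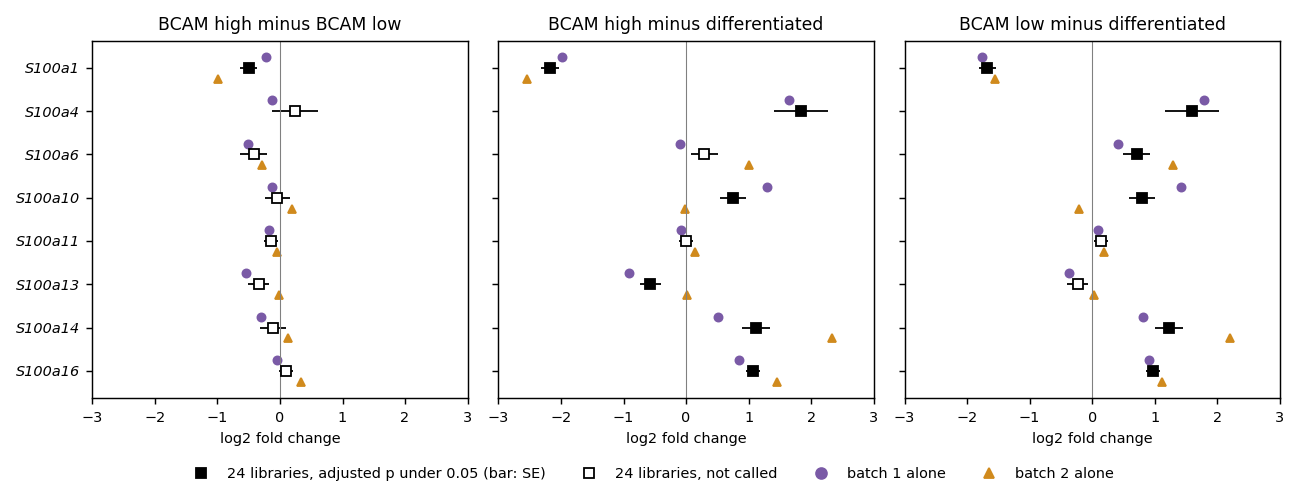
Log2 fold changes of the 8 tested S100 genes in the 3 comparisons; squares with SE bars are the fit over 24 libraries (filled where the adjusted p was under 0.05), circles batch 1 alone and triangles batch 2 alone. S100a1, S100a14 and S100a16 keep their side of 0 against differentiated libraries in both batches, and S100a10 does not. On the TPM scale, where the median of all genes is above 0, S100a13 against differentiated libraries takes the other sign.

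S100a8 and S100a9 were close to absent. S100a8 had 25, 42 and 7 counts over the 8 libraries of BCAM high, BCAM low and differentiated, and S100a9 had 22, 41 and 0. They were found in 11 and 8 of the 24 libraries, 7 of which held both. Replicate 3 of BCAM low held 26 of the 42 S100a8 counts, and replicate 1 of BCAM low held 26 of the 41 S100a9 counts. In counts summed over each group, against a floor of 3 counts over the differentiated group, S100a9 was at least 3.97-fold higher in BCAM high. In BCAM low it was at least 7.64-fold higher. Without replicate 1 of BCAM high and replicate 1 of BCAM low, the highest libraries, these bounds are 1.86-fold and 3.27-fold. They rest on few libraries. In BCAM high 5 of the 8 libraries held no S100a9, and replicates 1 and 3 held 13 and 8 of the 22 counts. All 41 counts of BCAM low came from batch 1. Of 9 batch 2 libraries, 1 held S100a8 and 1 held S100a9. The 11 neutrophil markers summed to 4.65 to 10.2 CPM in BCAM high and 4.72 to 14.02 in BCAM low, beside 3.09 to 9.83 in differentiated libraries. Of these, Ly6g, Camp, Ngp, Elane and Mpo had at most 5 counts each per group, and Camp was at 0 in both BCAM groups. Over all 24 libraries Cxcr2 had 347 counts, Itgam 94, Mmp9 43, Retnlg 41, Csf3r 31 and Mmp8 12. The part of neutrophils in the S100a8 and S100a9 values was not tested. The fold bounds of S100a9 set a floor of 3 counts for the differentiated group only. They do not cover counting error in the BCAM counts, and amplified reads are not independent molecules.

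Of the 8 tested members, 7 were called lower in batch 2 than in batch 1 in at least 1 group, against 14.5% of all genes, and none was called higher in any. In BCAM high 1 of 8 was called (8.04% of all genes; 3.11% lower), in BCAM low 4 (11.1%; 4.66% lower) and in differentiated libraries 6 (20.1%; 10.2% lower). S100a1 was not called in any group, with log2 fold changes of -0.43, 0.32 and 0.12 for BCAM high, BCAM low and differentiated.

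S100a10 moved with batch in the BCAM groups. Its mean was 216 ± 35.3 CPM in batch 1 (n = 5) and 83.3 ± 21.6 in batch 2 (n = 3) of BCAM high, and 237 ± 41.9 and 73.2 ± 4.77 in BCAM low. In differentiated libraries it was 87.9 ± 9.75 and 84.6 ± 8.40. Log2 fold changes were -1.37 (SE 0.168, edgeR adjusted p = 3.02e-06), -1.69 (SE 0.172, edgeR adjusted p = 5.27e-08) and -0.05 (SE 0.166, edgeR adjusted p = 0.857). The comparison with differentiated libraries changed between batches by -1.32 for BCAM high and -1.64 for BCAM low (edgeR adjusted p = 0.000276 and 1.61e-05). In batch 2, S100a10 in BCAM high overlapped the differentiated range, and in BCAM low it lay just below it.

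S100a14 moved with batch in the differentiated group. In differentiated libraries it had 101 ± 15.4 CPM in batch 1 and 30.04 ± 14.2 in batch 2 (log2 fold change -1.74, SE 0.192, edgeR adjusted p = 1.38e-07). In BCAM high it had 144 ± 9.51 and 152 ± 12.98, and in BCAM low 178 ± 18.9 and 138 ± 7.78, neither of which was called. The comparison with differentiated libraries changed by 1.81 for BCAM high and 1.38 for BCAM low (edgeR adjusted p = 1.39e-05 and 0.000317). S100a10 and S100a14 were the 2 of 8 members called in each of these tests, against 8.69% and 11.4% of all genes. For the change of BCAM high minus BCAM low, edgeR called 0 of 8 members (1 at an unadjusted p under 0.05), DESeq2 called 0 and limma on TPM 0, against 1.06% of all genes. The 1 member was S100a1, the member called between those groups, with a change of -0.75 (SE 0.237, edgeR unadjusted p = 0.00361, edgeR adjusted p = 0.143).

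S100a4 fell by 2.90 on the log2 scale in BCAM low (SE 0.62, edgeR adjusted p = 0.00189) and by 2.07 in differentiated libraries (SE 0.735, edgeR adjusted p = 0.0444), with -1.53 in BCAM high (edgeR adjusted p = 0.0737). S100a6 fell by 1.57 in differentiated libraries (SE 0.298, edgeR adjusted p = 0.000618), from 1017 ± 144 to 341 ± 239 CPM. S100a11 fell by 0.64 in BCAM low and 0.73 in differentiated libraries, and S100a16 by 0.65 and 0.85. S100a13 fell by 0.77 in differentiated libraries, and the change of its comparison with BCAM high between batches was 0.92 (edgeR adjusted p = 0.0588).

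Other markers moved with the batches beside these genes, and their part was not tested. In differentiated libraries the suprabasal and hillock sum was 1533 to 2056 CPM in batch 1 and 402 to 937 in batch 2, and 9 macrophage and dendritic markers summed to 272 to 396 and 24.3 to 126. Those 9 genes summed to 257 to 312 CPM in batch 1 and 157 to 172 in batch 2 of BCAM high, and to 262 to 396 and 178 to 243 in BCAM low, with Cd14 as the most counted. The 6 fibroblast markers, mostly Dcn in the BCAM groups, summed to 397 to 672 and 173 to 224 CPM in BCAM high, and to 240 to 382 and 66.2 to 302 in BCAM low. In BCAM low the summed level of 7 ciliated markers was 5.20 to 20.2 CPM in batch 1 and 165 to 278 in batch 2.

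**Figure D4:**
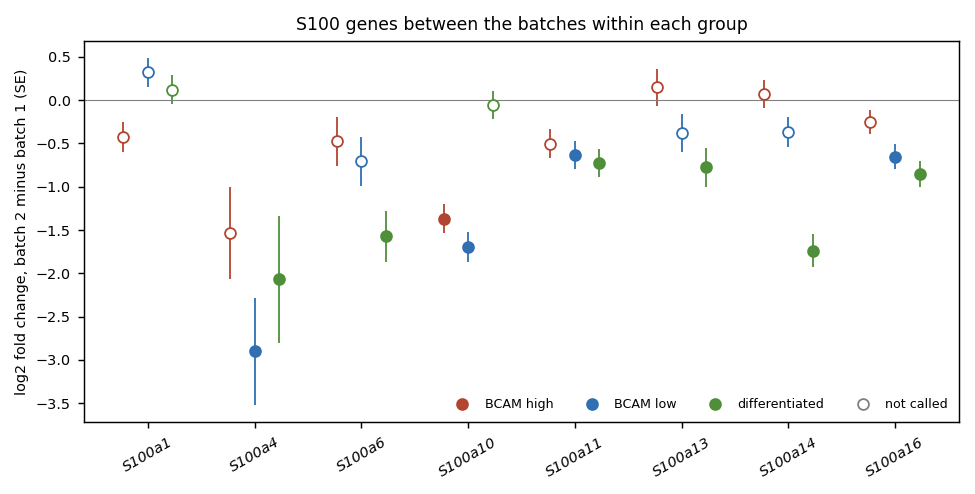
Log2 fold change of batch 2 minus batch 1 for the 8 tested S100 genes in each group, with SE; filled points had an adjusted p under 0.05. All filled points lie below 0, the lowest of them S100a4 in BCAM low at -2.90, and S100a10 is filled in the BCAM groups but not in the differentiated group.

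Across the 24 libraries, which share groups and batches, S100a14 and S100a16 followed each other with a Pearson r of 0.90 of log2 CPM, and S100a6 and S100a11 with 0.88. The latter pair reached 0.97, 0.96 and 0.96 within the BCAM high, BCAM low and differentiated groups, over 8 libraries each. S100a14 and S100a16 had 0.09, 0.89 and 0.92. The genes most like S100a1 among all tested were Plekhb1 (r = 0.97), Prdx5 (0.96) and Slc14a2 (0.95), and those most like S100a14 were Ptpru (0.97), Ephb2 (0.97) and Krt15 (0.97). S100a6 was followed most closely by Wnt7b (0.96), Krt19 (0.96) and Tspan8 (0.94), and S100a11 by mt-Cytb (0.93), Pfn1 (0.91) and mt-Nd4 (0.90). S100a16 and S100a4 had ribosomal protein genes first, with Rps9 (0.96) and Rpl36 (0.95), then Siva1 (0.95), and with Rpl34 (0.86), Rpl31-ps8 (0.84) and Rpl23a (0.82). S100a10 was nearest to Mgst3 (0.88), Itgb5 (0.87) and Rbm8a (0.87), and S100a13 to Cxcl5 (0.84), Mindy1 (0.83) and Krt8 (0.82).

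The files estimate levels per transcript, and how reads are divided among overlapping transcripts is uncertain. S100a11 and S100a13 have 1 annotated transcript each in the files. S100a6 kept the same makeup in every group: S100a6-203 held 75.3% ± 2.5, 76.3% ± 2.9 and 76.0% ± 3.3 of its TPM in BCAM high, BCAM low and differentiated libraries, and S100a6-202, annotated as a retained intron, 22.8%, 22.5% and 22.4%. The share of S100a14-202 varied more. It was 75.8% ± 15 in BCAM high and 86.3% ± 9.6 in BCAM low, while it was 44.9% ± 36 in differentiated libraries, where it ranged from near 0 to 79.2%.

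Of 8 other genes with S100 names, 3 were tested: S100g, S100b and S100pbp, which encodes a binding protein and was not called in any comparison. S100g, the calcium carrier calbindin-D9k, ran from 0.941 to 10.4 CPM in BCAM high and from 31.3 to 292 in BCAM low, without overlap (log2 fold change -3.92, SE 0.519, edgeR adjusted p = 6.53e-05). Differentiated libraries had 2.56 to 178 CPM of it (-3.29 for BCAM high, edgeR adjusted p = 2.44e-05). By batch, S100g ran from 66.4 to 292 CPM in batch 1 and 31.3 to 37.1 in batch 2 of BCAM low. In differentiated libraries it ran from 62.8 to 178 and 2.56 to 37.8. S100b, a glial and cartilage member, ran from 6.33 to 32.8 CPM in differentiated libraries, against 0 to 4.08 in BCAM high and 0.443 to 5.04 in BCAM low (log2 fold changes of -3.66 and -3.14 for the BCAM groups, edgeR adjusted p = 1.38e-06 and 1.29e-05). The differentiated libraries had 6.33 to 12.8 CPM of S100b in batch 1 and 19.8 to 32.8 in batch 2. The 4 glial markers summed to at most 7.64 CPM in differentiated libraries, while 5 cartilage markers summed to 30.5 to 162 there and to at most 18.4 in BCAM high and 17.8 in BCAM low. Sox9, which is not specific to cartilage, held 1339 of the counts in differentiated libraries, where Acan had 2, Col2a1 6, Matn1 5 and Comp 0. The part of these cell types in the S100b values was not tested. S100a5 had 61 counts in differentiated libraries and 0 in both BCAM groups, which makes it at least 37.5-fold and 36.4-fold lower in BCAM high and BCAM low. Without replicate 7 of the differentiated group, which held 27 of the counts, the bounds are 24.7-fold and 23.9-fold. Of the 61 counts, 51 came from the 3 differentiated libraries of batch 2 and 10 from the 5 of batch 1. S100a3 and S100a7a, also below the filter, had 68 and 57 counts in BCAM high, 109 and 57 in BCAM low, and 26 and 14 in differentiated libraries. Of 7 fused S100 genes, whose long proteins join an S100 domain to repeats, only Tchh was tested, and it was higher in both BCAM groups (1.04 in each, edgeR adjusted p = 0.00683 and 0.00927).

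Among 13 genes of S100 partners, 11 were tested. Between the BCAM groups, Anxa1 (-0.90, edgeR adjusted p = 0.0185), Anxa11 (-0.77) and Plat (-3.43), the tissue plasminogen activator that the S100a10 complex binds, were lower in BCAM high, and Myh9 was higher (0.45, edgeR adjusted p = 0.045). Anxa1 ran from 1061 to 1435 CPM in BCAM high and from 1770 to 3174 in BCAM low, without overlap, while its partner S100a11 was not called. Anxa2, the partner of S100a10, was not called between them (-0.38, edgeR adjusted p = 0.103). These are 4 of 11, against 7.02% of all genes. Against differentiated libraries, 2 partners were called higher and 4 lower in each BCAM group, where 41.3% of all genes were called for BCAM high and 33.5% for BCAM low. In BCAM high the higher ones were Ahnak (1.26), a giant scaffold protein of the S100a10 complex, and Myh9 (0.80), and the lower ones Plat (-4.16), Anxa6 (-1.26), Anxa11 (-0.999) and Cacybp (-0.62). In BCAM low they were Ahnak (1.21) and Anxa2 (0.48), and Anxa6 (-1.31), Fgf1 (-0.74), Cacybp (-0.73) and Sugt1 (-0.34). On the TPM scale Cacybp did not keep this order, with means of 42.9, 40.2 and 40.0 TPM in BCAM high, BCAM low and differentiated libraries. On the log2 TPM scale, however, the median of all genes was above differentiated libraries by 0.75 in BCAM high and 0.48 in BCAM low.

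All 5 receptor genes were tested. Alcam was lower in BCAM high than in BCAM low (-0.42, edgeR adjusted p = 0.0237), and it was the only receptor called there (1 of 5). Against differentiated libraries 2 of 5 were called for BCAM high and 4 for BCAM low, beside the shares of all genes given for the partners. Ager, the receptor RAGE, was lower in both BCAM groups than in differentiated libraries (-4.65 and -7.66, edgeR adjusted p = 5.12e-05 and 1.64e-06), as was Cd36 (-3.55 and -3.39). Ager ran from 185 to 1041 CPM in differentiated libraries, from 0.734 to 317 in BCAM high and from 0.229 to 14.6 in BCAM low. In BCAM low, Alcam was higher (0.40) and Bsg lower (-0.30) than in differentiated libraries, the latter with mean TPM of 701 and 666 in the other order. The median of all genes in that comparison was 0.48 on the log2 TPM scale. Tlr4, a receptor of calprotectin, was not called in any comparison (-0.04, 0.69 and 0.73).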

How the data were processed

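Per the labels' protocols, 1000 sorted cells per sample were lysed in TCL buffer, libraries followed SmartSeq2 for cell populations, and pairs of 38-base reads came from a NextSeq500. The submitters' processing notes name kallisto 46.1, Picard and the build GRCm39; its options and strand use are not stated in any of them. The deposited tables hold, per the file headers, an estimated count, an effective length and a TPM for each of 117497 transcripts; the authors did not normalize the estimated counts, and the deposited TPM are scaled to transcript length and to a fixed sum per library.

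From these, 116374 transcripts were matched by identifier to GENCODE M21 (GRCm38), and 1123 without a match (0.317% to 0.594% of a library's counts) were left out. Counts were summed per gene and rounded. The main test was edgeR 4.0.16 (R 4.3.3), quasi-likelihood with TMM factors, the default low-count filter (12211 genes), group means plus batch over 24 libraries, and Benjamini-Hochberg adjustment over all genes tested. A fit with 1 mean for each combination of group and batch gave batch differences and their change between groups. SE is the absolute change over the square root of F. The fits were tested on simulated counts. Alternatives were DESeq2 1.42.0, limma 3.58.1 on log2(TPM + 0.1) or log2(TPM + 1), no filter, transcript length offsets, no batch term, a replicate block, 2 groups only, each batch alone, and each library left out; on the TPM scale fold changes of low genes are understated. Bounds use a floor of 3 counts over the group without counts and do not cover counting error in the other group.

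All 10 members, their partner, receptor and marker lists and, per tested member, the 3 genes with the highest r were named. The members and lists were chosen with earlier results of these data known. Nothing says that samples came from separate animals, so p-values measure the spread between these samples, which may be technical. No 2 libraries held identical counts. Coordinates and promoter windows are of GRCm38, not of the authors' build; protein sequences are not analysed here. Genes with near-identical copies are uncertain.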

Additional observations from a re-analysis of the deposited data

Results flagged for a closer look

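Of 30 sets of 8 libraries (10 members in 3 groups), 2 held a library far from the other 7 by Dixon's criterion at the 95% level. The set of S100a9 in differentiated libraries, at 0 in all 8, could not be flagged. Chance flags about 1 in 20 sets of normally distributed values, which sets of S100a8 and S100a9 with many 0 values are not. S100a6 was at 1989 CPM in replicate 3 of BCAM low, and S100a9 was at 6.57 CPM in replicate 1 of BCAM low, which came from 26 counts. S100a10 and S100a14 differed in their comparison with differentiated libraries between batch 1 and batch 2, by the edgeR test of that difference. For S100a10 the log2 change was -1.32 with BCAM high and -1.64 with BCAM low. For S100a14 it was 1.81 with BCAM high and 1.38 with BCAM low.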

How the results depend on the processing

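In BCAM high minus BCAM low, edgeR called 857 genes. There were 568 calls with transcript length offsets, 545 without the batch term, 1297 with only the 2 groups fitted and 543 in batch 2 alone. BCAM high minus differentiated had 5044 calls and 7709 or 7741 with limma on log2(TPM + 0.1) or log2(TPM + 1), and BCAM low minus differentiated had 4086 and 2221 in batch 2 alone. On log2(TPM + 0.1) the split of calls was 611 higher and 194 lower in BCAM high minus BCAM low (297 and 560 by edgeR), 6823 and 886 in BCAM high minus differentiated (2363 and 2681), and 4316 and 623 in BCAM low minus differentiated (1996 and 2090), with medians of all genes of 0.26, 0.75 and 0.48.

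Members called in BCAM high minus BCAM low numbered 1 by edgeR, 0 with limma at either pseudocount, 2 with only the 2 groups fitted, where S100a6 joined (-0.44, edgeR adjusted p = 0.00973), and 0 to 1 with 1 library left out. Against differentiated libraries 6 were called in each comparison and 3 in each in batch 2 alone, where S100a4 was not tested, nor was it with only BCAM low and differentiated fitted. Between batches, BCAM high had 1 call, 3 with DESeq2's Wald test, 3 without the filter, and 1 to 3 with 1 library left out. The counts of 2 or 3 came without replicate 1 or 8 of BCAM high, 3 of BCAM low, or 1, 2, 6, 7 or 8 of the differentiated group. BCAM low had 4 and differentiated 6, and limma gave 2 in each. For the change between batches, members called were 0, with 0 to 1 when 1 library was left out (1 without replicate 3 of BCAM low), in BCAM high minus BCAM low. They were 2, with 2 to 4 when 1 library was left out (4 without replicate 3 of BCAM low or replicate 5 or 8 of the differentiated group), in BCAM high minus differentiated. In BCAM low minus differentiated they were 2, and 1 with limma. The cause of these shifts was not tested.

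Signs of uncalled values changed as follows, where limma values stand beside the positive medians of all genes given above for log2 TPM. In BCAM high minus BCAM low, limma at both pseudocounts gave 0.24 for S100a10, 0.14 for S100a11 and 0.18 for S100a14. Batch 2 alone gave 0.19 for S100a10 and 0.13 for S100a14, batch 1 alone -0.055 for S100a16 and -0.14 for S100a4, and no batch term -0.0074 for S100a4; leaving out 1 library gave S100a10 -0.115 to 0.062. In BCAM high minus differentiated, S100a11 was at 0.091 without the filter, 0.76 and 0.75 with limma, 0.031 with length offsets, 0.14 in batch 2 alone and -0.075 to 0.081 with 1 library left out, and S100a6 was at -0.094 in batch 1 alone. The called S100a13 was at 0.22 with limma at both pseudocounts and 0.011 in batch 2 alone, and the called S100a10 at -0.024 in batch 2 alone. In BCAM low minus differentiated, batch 2 alone gave -0.21 for S100a10 and 0.031 for S100a13, and limma 0.29 and 0.28 for S100a13. S100a6 in BCAM low minus differentiated lost its call without the batch term (0.61, edgeR adjusted p = 0.126).

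Same-numbered libraries were not taken as pairs, because their deviations correlated at 0.0164 to 0.134 and only 6 of 24 correlations were over 0.1. All 24 were above 0, and in 20 of 24 cases a library correlated best with its own number within its batch, a hint from the data and not from the design. With the replicate block, 864, 5129 and 4136 genes were called in the 3 comparisons, members called stayed 1, 6 and 6, and S100a11 in BCAM high minus differentiated was at 0.0094. Depth limits S100a8, S100a9 and, in batch 2, S100a4.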
